A study of Mus musculus with 57 samples.

Results

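The clustered protocadherin genes are the 58 genes of the Pcdha, Pcdhb and Pcdhg clusters on mouse chromosome 18 (mm10), taken from the curated RefSeq annotation, and they were read here among 26089 curated genes in all. The alpha cluster has 14 members (Pcdha1 to Pcdha12, Pcdhac1 and Pcdhac2) at chr18:36930285-37188897, a span of 259 kb. The beta cluster has 22 members (Pcdhb1 to Pcdhb22) at chr18:37264998-37521419, a span of 256 kb. The gamma cluster has 22 members at chr18:37661775-37841873, a span of 180 kb, namely 12 of the A type, 7 of the B type and Pcdhgc3, Pcdhgc4 and Pcdhgc5. Of these, 53 start at alternate promoters, the beta genes being counted with them, and 5 (Pcdhac1, Pcdhac2, Pcdhgc3, Pcdhgc4 and Pcdhgc5) at C-type promoters.

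Clustered protocadherins are cell-surface adhesion proteins of neurons. In the alpha and gamma clusters, each variable exon has its own promoter and is spliced to constant exons shared by the whole cluster, whereas each beta gene is a single-exon gene. A single neuron usually transcribes a small, largely random choice of the alternate isoforms, while C-type isoforms are expressed more uniformly among neurons, and the combination on the membrane gives the cell an identity used in self-recognition of its dendrites and axons.

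H3K4me3 and H3K27ac, which mark active promoters, and H3K27me3, the mark left by Polycomb complexes at silenced genes, were measured by chromatin immunoprecipitation and sequencing (ChIP-seq) in brain cortex and gastrocnemius, a muscle of the lower leg. All mice belonged to the PSAPP strain, a transgenic model of Alzheimer's disease, and were 13 months old. They comprised both sexes, and they were housed singly on a modified AIN-93 diet from 6 months of age. The 10 animals gave 57 libraries, with 9 cortex and 10 gastrocnemius libraries for each mark, and 9 of the mice gave both tissues. No mouse without the transgenes was included, so every value below describes PSAPP tissue, and both tissues are mixtures of cells, in which fewer cells carrying a mark and less of it per cell cannot be told apart.

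The deposited values are peaks called separately in each library, each with its read count. A member's level was taken as the reads of called peaks lying within 1 kb of its transcription start site (TSS), in counts per 1000000 reads in autosomal peaks (CPM). A window without a called peak was given 0 reads, so a level of 0 means that no peak was called and not that the mark was absent. Autosomal peaks held 9025744 to 18622389 reads in the H3K4me3 libraries, 3903965 to 27042958 for H3K27ac and 2994110 to 18236388 for H3K27me3. The lowest H3K27ac depth, 3903965 reads, belonged to cortex replicate 9, against 14279570 to 20972632 in the other cortex libraries. Gastrocnemius replicate 5 stood apart for H3K27me3 with 18236388 reads, the other muscle libraries having 2994110 to 7544243. Tissue labels were checked with marker genes. The synaptic gene Snap25 had 27.8 CPM ± 1.34 (SD, n = 9) of H3K4me3 in the cortex and no peak in the gastrocnemius, whereas Ckm, which encodes muscle creatine kinase, had 21.7 CPM ± 3.50 (SD, n = 10) in the gastrocnemius and no peak in the cortex. For H3K27ac, Snap25 had 10.4 CPM ± 1.94 (SD, n = 9) and no peak in the gastrocnemius, and Ckm had 0.631 CPM ± 1.25 (SD, n = 9) in the cortex and 8.52 CPM ± 1.27 (SD, n = 10) in the gastrocnemius, but Acta1, the skeletal muscle actin gene, overlapped (6.09 to 9.71 against 6.89 to 11.2 CPM). For H3K27me3 the order was opposite, at 1.28 CPM ± 2.55 (SD, n = 9) for Snap25 in the cortex and 7.45 CPM ± 2.23 (SD, n = 10) in the gastrocnemius, which overlapped, and for Ckm 8.31 CPM ± 1.08 (SD, n = 9) against 0.335 CPM ± 1.06 (SD, n = 10).

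**Figure D1:**
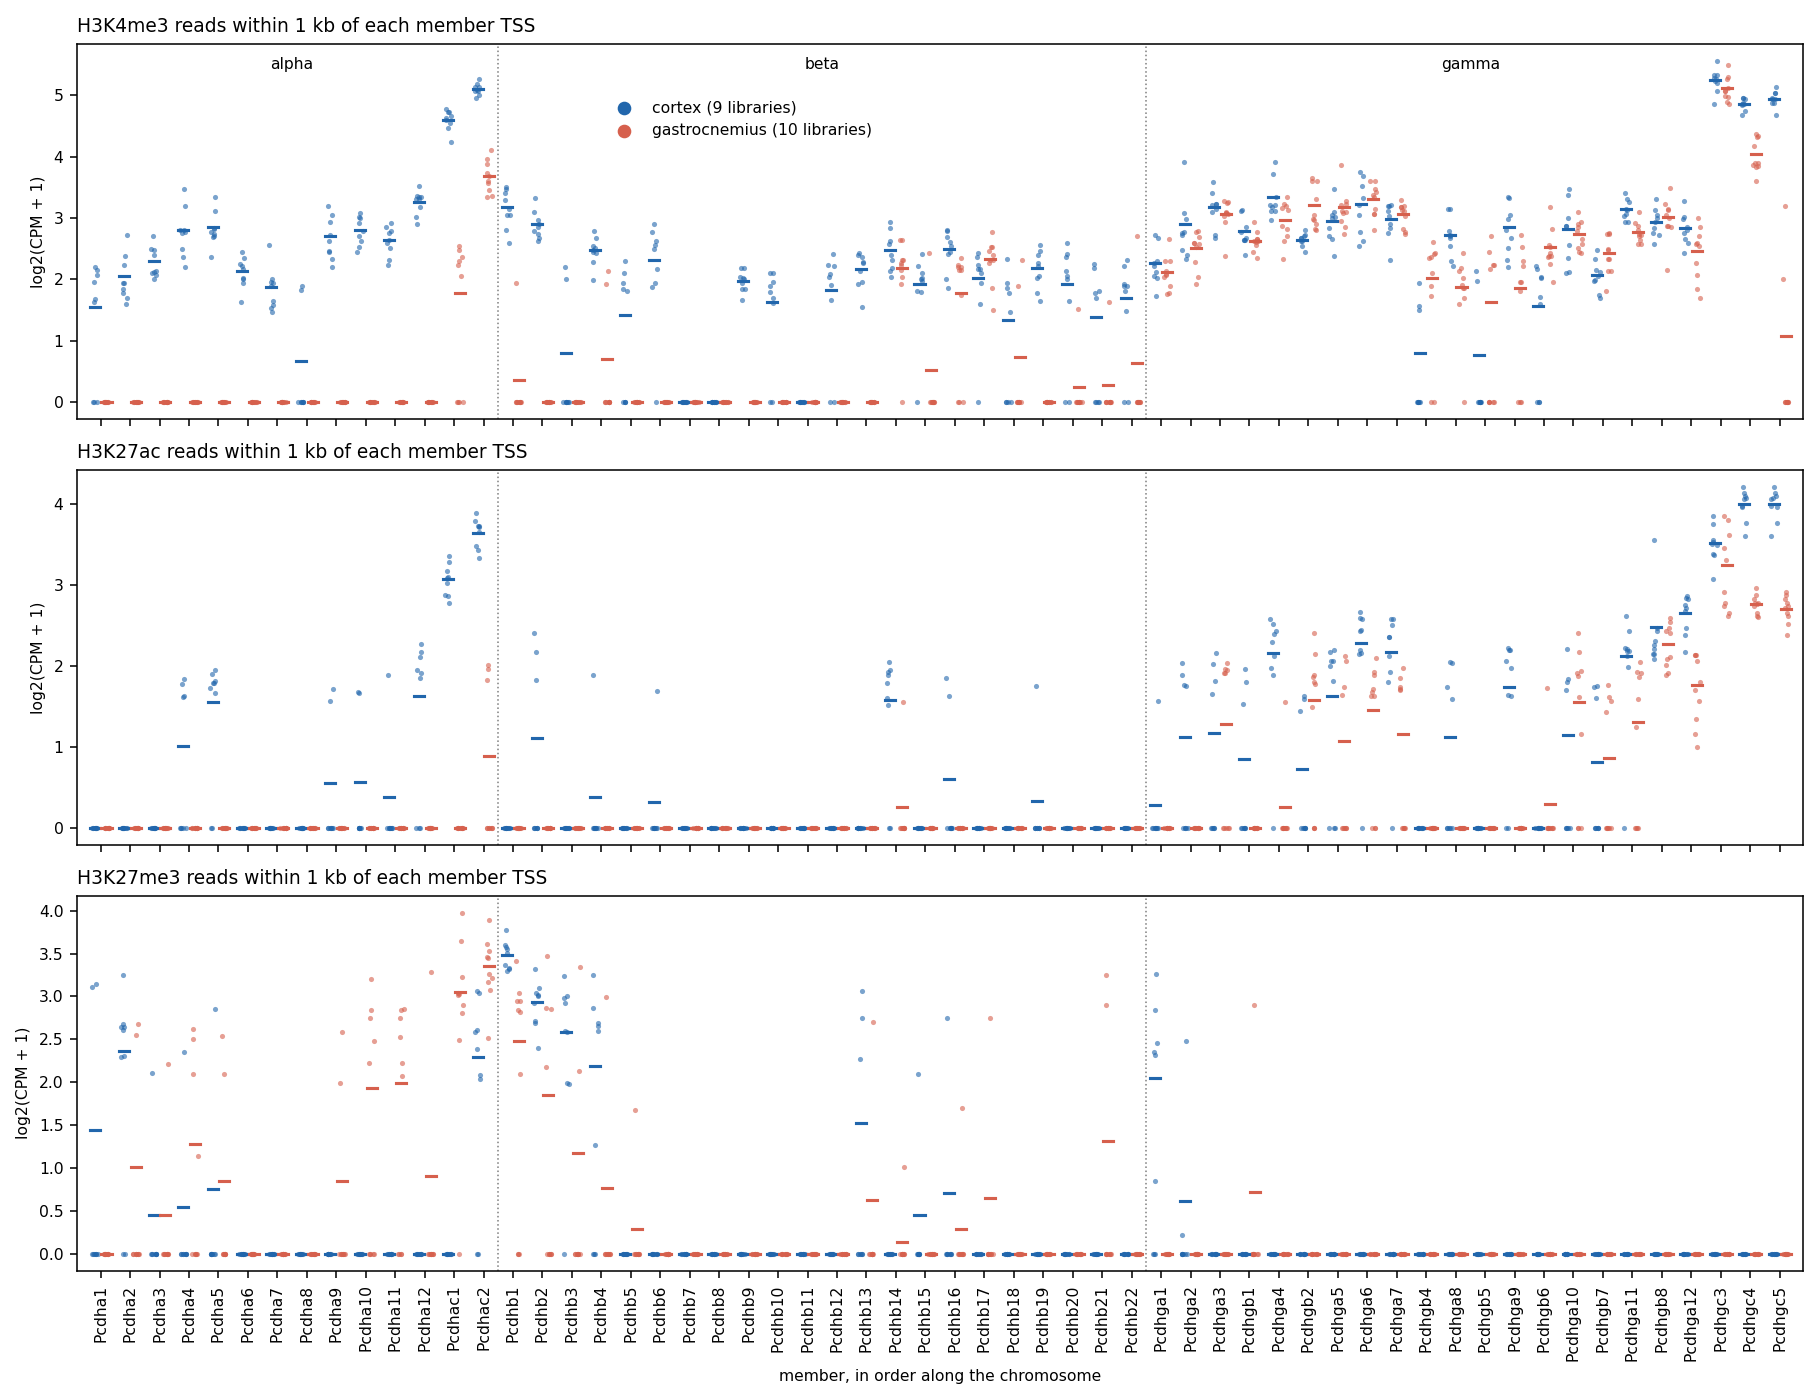
Reads within 1 kb of the TSS of each of the 58 members, in order along the chromosome, on a log2(CPM + 1) axis for H3K4me3 (top), H3K27ac (middle) and H3K27me3 (bottom). Points are libraries (9 cortex, 10 gastrocnemius), bars mark the mean CPM, and 0 means no called peak; the 12 alternate alpha members have H3K4me3 in cortex libraries alone, and the C-type members stand highest in the cortex for H3K4me3 and H3K27ac.

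H3K4me3 was called at 43 to 55 of the 58 members in single cortex libraries (median 49) and at 22 to 28 in gastrocnemius libraries (median 25.5). The ranges did not overlap. Over all genes the share of promoters with an H3K4me3 peak was alike in both tissues, at 58.7 to 60.9% in the cortex and 57.9 to 59.6% in the gastrocnemius, while for the members it was 74.1 to 94.8% against 37.9 to 48.3%. Summed over the members, H3K4me3 reached 332 to 437 CPM in the cortex (median 372) and 159 to 216 CPM in the gastrocnemius (median 176).

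Members were compared between tissues by edgeR's quasi-likelihood test, fitted over all promoters with a peak in at least 3 libraries of a tissue, and called at a false discovery rate (FDR) under 0.1. For H3K4me3, 53 members entered the test, of which 33 were higher in the cortex, 1 was higher in the gastrocnemius and 19 were not called. Of the 33, 30 had an unadjusted p under 0.05 by edgeR. Among all 16728 promoters tested, 59.1% were called higher in the cortex and 16% higher in the gastrocnemius. The median log2 difference (cortex minus gastrocnemius) over all tested promoters was 0.33. With TMM factors, which bring that median to 0.04, 27 members were higher in the cortex and 8 higher in the gastrocnemius, against a background of 32.3% and 27.4%. That scaling lowered the share of all calls that were higher in the cortex from 78.7% to 54.1%. The deposited names of 2 cortex and 4 gastrocnemius libraries of each mark carry a run number, the other 7 and 6 do not, and what it marks is not stated. Within the libraries without one, 32 members were higher in the cortex and 2 higher in the gastrocnemius, against 57.8% and 14.8% of all promoters tested there. Within those with one, 24 and 1 were called, against 19.4% and 7.51%. Among the 33 members higher in the cortex, 19 had no peak in any gastrocnemius library, so they entered the test through the cortex alone, and their fitted folds are not given. Pcdhb1, Pcdhb4, Pcdhb15, Pcdhb20, Pcdhb21 and Pcdhgc5, with a peak in 1 or 2 gastrocnemius libraries, also entered through the cortex alone. For some members a second value is given below as a description, a conservative log2 difference in which uncalled bases were set to the lowest read density among the library's own peaks. Whether the libraries of the tissues overlap at a member is also a description, and the share over all promoters is not given here.

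**Figure D2:**
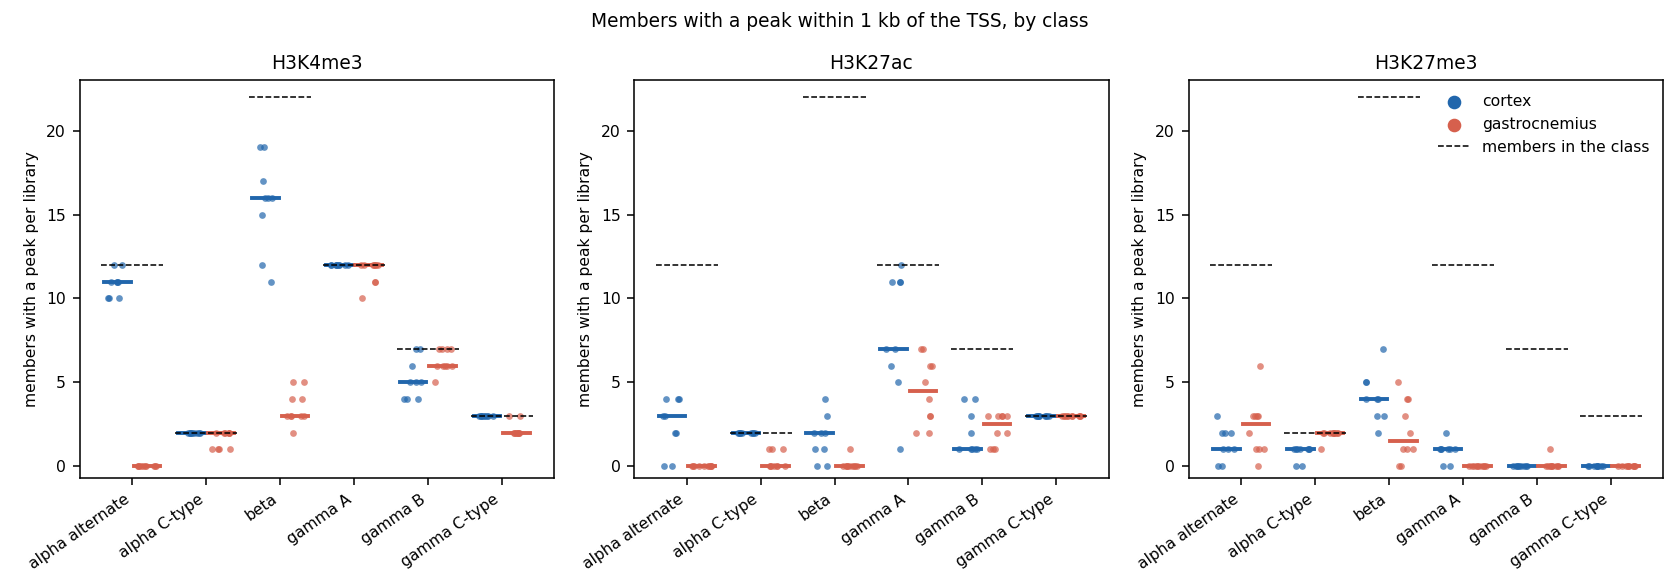
Number of members with a peak within 1 kb of the TSS in each library (points) by class, with the median (bar) and the size of the class (dashed line), for the 3 marks. No gastrocnemius library has an H3K4me3 peak at an alternate alpha member, whereas all 12 gamma A members have one in every cortex library and 10 to 12 in the gastrocnemius libraries.

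The alternate members of the alpha cluster carried H3K4me3 in the cortex and had no called peak in any of the 10 gastrocnemius libraries. Peaks were called at 10 to 12 of the 12 in cortex libraries, and 11 members entered the test, through their cortex libraries alone, so their calls in favour of the cortex were largely fixed by the filter and are given as a description. Pcdha12, the alternate promoter nearest to the C-type promoters, was the highest of them, with 6.47, 8.94 and 10.5 CPM as the lowest, median and highest cortex libraries. With uncalled bases at the lowest peak density its log2 difference was 1.80. Pcdha5 had 4.15, 5.85 and 9.19 CPM, and its conservative log2 difference was 1.43. At the other end, Pcdha8 had a peak in 2 of 9 cortex libraries and was not tested. These levels were low beside those of other genes, since the median over the 12 alternate alpha members was 4.58 CPM in the cortex and the median over all promoters with a peak was 36.8 CPM. The windows of Pcdha4, Pcdha6 and Pcdha7 also hold the TSSs of the predicted genes Gm37013, Gm38666 and Gm38667, so those reads cannot be assigned to one gene of each pair.

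In the beta cluster, cortex libraries had H3K4me3 peaks at 11 to 19 of the 22 and gastrocnemius libraries at 2 to 5, and of 18 members tested, 13 were higher in the cortex (59.1% of all tested promoters were) and 5 were not called. No gastrocnemius peak was called at 8 of the 13, and the other 5 had one in 1 or 2 gastrocnemius libraries. All 13 thus entered the test through the cortex alone, so their calls were largely fixed by the filter. Pcdhb1, the first gene of the cluster, was the highest, with 5.05, 7.89 and 10.3 CPM in the lowest, median and highest cortex libraries and a peak of 2.86 CPM in 1 of 10 gastrocnemius libraries. As a description, its fitted log2 difference was 4.74 (SE 1.0), which became 9.67 without gastrocnemius replicate 7, the library with that peak. It was 1.62 with uncalled bases at the lowest peak density. Pcdhb2 had 5.16, 6.22 and 8.99 CPM in the cortex and no peak in the gastrocnemius, and was called higher in the cortex. Exceptions in muscle were Pcdhb14, Pcdhb16 and Pcdhb17, which were singled out after their values were seen and had peaks in 9, 7 and 10 gastrocnemius libraries and in 9, 9 and 8 cortex libraries. None of the 3 was called between tissues by edgeR as described above, but Pcdhb16 was called higher in the cortex with uncalled bases at the lowest peak density, by limma, without the 25% lowest scores and with equally many top-scoring peaks, and Pcdhb17 higher in the gastrocnemius by DESeq2. No library of either tissue had an H3K4me3 peak at Pcdhb7, Pcdhb8 or Pcdhb11. Members are paralogues of similar coding sequence, and reads of low mapping quality had been removed, but how many reads each window could receive was not measured.

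Among the classes of alternate promoters, gamma A and gamma B had H3K4me3 peaks at most of their members in muscle. Every cortex library had a peak at all 12 gamma A members, and gastrocnemius libraries had one at 10 to 12. The libraries of the tissues overlapped for all 12. Summed H3K4me3 over gamma A was 69.8 to 101 CPM in the cortex (median 79.8) and 55.5 to 78.0 CPM in the gastrocnemius (median 67.7). In all, 5 gamma A members (Pcdhga2, Pcdhga4, Pcdhga8, Pcdhga9 and Pcdhga11) were called higher in the cortex and 7 were not called, where 59.1% of all promoters were called higher in the cortex. Pcdhga4 was the highest in the cortex, with 6.79, 8.24 and 14.1 CPM in the lowest, median and highest libraries against 4.04, 7.04 and 9.11 CPM in the gastrocnemius. Its log2 difference was 0.41 (SE 0.17, FDR = 0.038 by edgeR) and became 0.11 (FDR = 0.602) with TMM factors. None of the 5 calls held under that scaling, and with a block for the mouse only that of Pcdhga4 held. Without cortex replicate 4, the FDR for Pcdhga4 was 0.110.

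For gamma B, 1 of 7 members was called higher in the gastrocnemius, where 16% of all tested promoters were. Summed H3K4me3 had a median of 24.8 CPM in the cortex (18.3 to 31.9) and 35.4 CPM in the gastrocnemius (highest 40.7), and the ranges overlapped. That member was Pcdhgb2, with 4.44, 5.36 and 6.01 CPM in the lowest, median and highest cortex libraries against 5.98, 7.08 and 11.6 CPM in the gastrocnemius. Of the 10 gastrocnemius libraries, 9 lay above the highest cortex library, so the groups overlapped by 1 library. The log2 difference was -0.64 (SE 0.17, FDR = 0.00244 by edgeR), and -0.94 with TMM factors. Without the 25% lowest scores Pcdhgb2 did not pass the threshold (log2 difference -1.77, FDR = 0.105 by edgeR). None of the 7 gamma B members was called higher in the cortex, and 6 were not called. Pcdhgb4, Pcdhgb6, Pcdhgb7 and Pcdhgb8, together with Pcdhga5, Pcdhga6, Pcdhga7 and Pcdhgb2, made up the 8 members higher in the gastrocnemius with TMM factors. A block for the mouse, which uses the 9 animals with both tissues, called 30 members higher in the cortex and 3 (Pcdhgb2, Pcdhgb4 and Pcdhgb6) higher in the gastrocnemius, against 57.3% and 14.3% of all tested promoters.

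**Figure D3:**
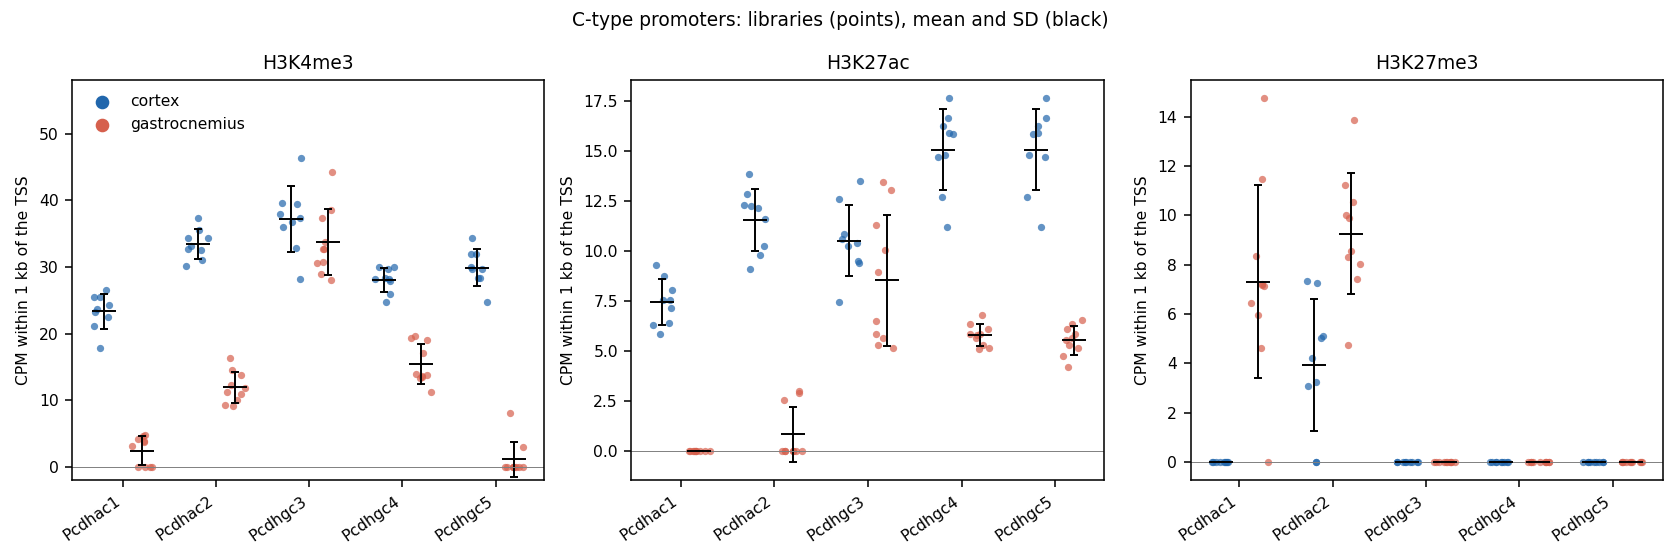
Reads within 1 kb of the TSS of the 5 C-type members (CPM, linear axis) for each mark, with libraries as points and the mean and SD in black. For H3K4me3 the tissues separate completely at every C-type member but Pcdhgc3, and H3K27me3 peaks occur at Pcdhac1 and Pcdhac2 but at no gamma C-type member.

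C-type promoters held the highest H3K4me3 of the 58 members in the cortex, at 23.4 to 37.1 CPM on average. Pcdhac1 had 17.9, 23.7 and 26.5 CPM in the lowest, median and highest cortex libraries and 0, 3.41 and 4.85 CPM in the gastrocnemius, with a log2 difference of 3.28 (SE 0.65). Pcdhac2 had 30.2, 33.2 and 37.4 CPM against 9.10, 11.5 and 16.3 CPM, with a log2 difference of 1.49 (SE 0.10). All cortex libraries lay above all gastrocnemius libraries for both. Among the gamma C-type members, Pcdhgc3 overlapped between tissues, with 28.1, 37.4 and 46.3 CPM against 28.0, 32.7 and 44.2 CPM. Its log2 difference of 0.14 (SE 0.10) was not called (FDR = 0.212 by edgeR), turned to -0.16 with TMM factors and passed the threshold without gastrocnemius replicate 9 (FDR = 0.0733). Other settings called it in opposite directions, higher in the gastrocnemius by DESeq2 (-0.19, FDR = 0.038) and with DESeq2 size factors in edgeR (-0.19, FDR = 0.056), and higher in the cortex within the libraries without a run number (0.23, FDR = 0.0909). Pcdhgc4 had 24.7, 28.2 and 30.0 CPM against 11.2, 13.9 and 19.6 CPM, a log2 difference of 0.86 (SE 0.10). Pcdhgc5 had 24.7, 29.7 and 34.3 CPM in the cortex, while in the gastrocnemius a peak was called in 2 of 10 libraries and the highest reached 8.15 CPM. Pcdhgc5 entered the test through the cortex alone, so its call was largely fixed by the filter and its values are a description. Its log2 difference was 4.67 (SE 0.82), 6.32 without gastrocnemius replicate 6 (4.51 to 4.96 without any other single library), and 3.10 with uncalled bases at the lowest peak density. The tissues did not overlap for Pcdhgc4 or Pcdhgc5. Among the 5 C-type members, 4 (Pcdhac1, Pcdhac2, Pcdhgc4 and Pcdhgc5) were called higher in the cortex, where 59.1% of all tested promoters were. These calls held with TMM factors and with the mouse block, but within the libraries with a run number those of Pcdhac1 (log2 difference 3.34, FDR = 0.282 by edgeR) and Pcdhgc5 (3.82, FDR = 0.306 by edgeR) did not pass the threshold.

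In the cortex, the median width of H3K4me3 peaks was larger at C-type members than in the other classes. However, alpha C-type (1.6 to 8.6 kb) and gamma C-type peaks (3.8 to 14.4 kb) overlapped gamma A peaks (0.8 to 5 kb). The median was 4.3 kb at alpha C-type and 11.8 kb at gamma C-type members, against 1 kb at alternate alpha, 1.2 kb at beta, 2.6 kb at gamma A and 1.6 kb at gamma B members. In the gastrocnemius it was 2.2 kb at alpha C-type and 5 kb at gamma C-type members, against 1.2 kb at beta, 2.4 kb at gamma A and 1.8 kb at gamma B members, so alpha C-type peaks did not exceed those of gamma A there. Gamma C-type peaks (2.4 to 6.8 kb) lay within the gamma A range (0.6 to 9 kb) in that tissue. Reads of a peak were shared evenly along its length, so 2 members under one broad peak have values that are not independent.

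H3K27ac was scarcer. It was called at 7 to 27 members in cortex libraries (median 18) and at 6 to 15 in gastrocnemius libraries (median 10), so these counts overlapped, and the lowest cortex count, 7, came from the shallow cortex replicate 9. As shares of the 58 these were 12.1 to 46.6% and 10.3 to 25.9%, where 59.1 to 65.9% of all promoters had a peak in the cortex and 59.8 to 62.7% in the gastrocnemius. Summed H3K27ac did not overlap, at 84.8 to 132 CPM in the cortex (median 102) and 27.4 to 55.5 CPM in the gastrocnemius (median 39.4). Of 25 members tested, 15 were higher in the cortex, 0 were higher in the gastrocnemius and 10 were not called, where 49.8% and 12.9% of all 18354 tested promoters were called in these directions. No tested member had an unadjusted p under 0.05 in favour of the gastrocnemius by edgeR, and limma called 1. The same 15 were called with TMM factors, with uncalled bases at the lowest peak density, and without the shallow library, whereas the mouse block lost Pcdhb2 and Pcdhgb1. With uncalled bases at the lowest peak density further members were called, 19 in all. No peak in muscle was called at 9 of the 15, and Pcdhb14 and Pcdhga4 had one in 1 gastrocnemius library each. All of these likewise entered through the cortex alone. Within the libraries without a run number in the name, 15 members were higher in the cortex and 0 higher in the gastrocnemius by edgeR, against 45.6% and 11.6% of all promoters tested there. Within those with one, 3 and 1 were called, against 12.5% and 4.77%. With TMM factors the background was 31.7% and 24.6%.

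At C-type promoters Pcdhac1, Pcdhac2, Pcdhgc4 and Pcdhgc5 were called higher in the cortex for H3K27ac, where 49.8% of all tested promoters were, and Pcdhac1 entered the test through the cortex alone. Pcdhac1 had 5.88, 7.55 and 9.30 CPM in the lowest, median and highest cortex libraries and no peak in the gastrocnemius. Pcdhac2 had 9.12, 12.1 and 13.8 CPM, and a peak in 3 of 10 gastrocnemius libraries (log2 difference 3.72, SE 0.73), and it did not pass the threshold within the libraries with a run number (log2 difference 2.42, FDR = 0.157 by edgeR). The cortex libraries stood above every gastrocnemius library for both genes. Pcdhgc4 and Pcdhgc5, which lie under one broad peak in the cortex and so have the same cortex values (11.2, 15.8 and 17.6 CPM), had 5.12, 5.83 and 6.81 CPM and 4.23, 5.62 and 6.55 CPM in the gastrocnemius. Their log2 differences were 1.37 (SE 0.09) and 1.43 (SE 0.10), with no overlap between tissues. Pcdhgc5 therefore had an H3K27ac peak in all 10 gastrocnemius libraries and an H3K4me3 peak in 2 of them. Pcdhgc3 had 7.44, 10.4 and 13.5 CPM against 5.15, 7.73 and 13.4 CPM and was not called, with a log2 difference of 0.29 (SE 0.19, FDR = 0.193 by edgeR). With the mouse block the value for Pcdhgc3 was 0.34 (FDR = 0.0781), and the FDR was 0.0709 without gastrocnemius replicate 9 and 0.0852 without gastrocnemius replicate 10. It was also called higher in the cortex by limma (FDR = 0.0936), with the label-number block (FDR = 0.0156) and with 2.5 kb windows (FDR = 0.0558), and in the opposite direction with whole peak counts (log2 difference -0.99, FDR = 0.0318 by edgeR). In the cortex the H3K27ac level of Pcdhgc4 lay at the 93.9th percentile of promoters with a peak, although its H3K4me3 lay at the 36.4th.

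Alternate promoters carried H3K27ac in part. In the alpha cluster Pcdha5, Pcdha12 and Pcdha4 had a peak in 7, 6 and 4 of 9 cortex libraries and in no gastrocnemius library, and they entered the test through the cortex alone. Pcdha12 was the highest of the class, with 0, 2.77 and 3.82 CPM in the lowest, median and highest cortex libraries. No library of either tissue had an H3K27ac peak at 6 of the 12 alternate alpha members, and the same held for 16 of the 22 beta members. Pcdhb14 led the beta cluster, with a peak in 7 of 9 cortex libraries and in 1 of 10 gastrocnemius libraries. Pcdhga12, the last alternate promoter before the gamma C-type genes, had 3.52, 5.58 and 6.32 CPM against 0.993, 2.38 and 3.42 CPM, without overlap (log2 difference 1.14, SE 0.26). It did not pass the threshold within the libraries with a run number (log2 difference 1.17, FDR = 0.394 by edgeR). Pcdhga9 had a peak in 7 cortex libraries and in no gastrocnemius library. Among gamma B members Pcdhgb8 was the highest, with 3.25, 3.78 and 10.8 CPM against 2.71, 3.84 and 5.02 CPM, overlapping and not called. The 10.8 CPM was measured in the shallow cortex replicate 9, and the log2 difference of 0.23 became -0.01 without it.

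H3K27me3 was called at 4 to 10 members in cortex libraries (median 7) and at 2 to 13 in gastrocnemius libraries (median 6), the 13 being the deepest library. As shares of the 58 these were 6.90 to 17.2% and 3.45 to 22.4%, where 22.0 to 25.4% of all promoters had a peak in the cortex and 19.9 to 29.5% in the gastrocnemius. Of 12 members tested, 1 was higher in the cortex, 4 were higher in the gastrocnemius and 7 were not called, where 19.9% and 23% of all 9422 tested promoters were called in these directions. Of the 5 called, Pcdhga1, Pcdhac1, Pcdha10 and Pcdha11 had no peak in the other tissue and entered the test through the tissue where they are high. With the mouse block, 5 members (Pcdha2, Pcdhb2, Pcdhb3, Pcdhb4 and Pcdhga1) were higher in the cortex and 3 higher in the gastrocnemius, against a background of 21% and 21.4%. Of these, all but Pcdhb2 entered the test only through the tissue where they are high. Within the libraries without a run number in the name 2 and 2 were called by edgeR, against 19.7% and 21.6% of all promoters tested there, and within those with one 0 and 1, against 13.5% and 12.7%. Leaving out gastrocnemius replicate 2, 7, 8 or 9 gave 3, 2, 2 and 2 members higher in the cortex.

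The alpha C-type promoters carried H3K27me3 in muscle. Pcdhac1 had no peak in the cortex and a peak in 9 of 10 gastrocnemius libraries, with 0, 7.15 and 14.7 CPM as the lowest, median and highest. With uncalled bases at the lowest peak density its log2 difference was -0.99, given as a description since it entered the test through the gastrocnemius alone. Pcdhac2 had 0, 4.22 and 7.34 CPM in the cortex (7 of 9 libraries with a peak) against 4.73, 9.23 and 13.9 CPM in the gastrocnemius, where 9 of 10 libraries exceeded the highest cortex library. Its log2 difference was -1.24 (SE 0.56, FDR = 0.0879 by edgeR), close to the threshold. With the mouse block the log2 difference was -1.68 (FDR = 0.135 by edgeR). The FDR was above 0.1 in 12 of the 19 fits that left out 1 library, at log2 differences of -1.27 to -1.15. Pcdha10 and Pcdha11 had no peak in the cortex and one in 5 and 6 gastrocnemius libraries, through which alone they entered the test. No library of either tissue had an H3K27me3 peak at Pcdhgc3, Pcdhgc4 or Pcdhgc5, and the gamma B members had 1 such peak among all libraries, at Pcdhgb1.

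In the cortex the mark lay at the start of the beta cluster. Peaks were called at Pcdhb1, Pcdhb2, Pcdhb3 and Pcdhb4 in 9, 9, 8 and 6 of 9 cortex libraries and in 7, 4, 2 and 1 of 10 gastrocnemius libraries. Pcdhb1 had 8.85, 10.4 and 12.7 CPM in the lowest, median and highest cortex libraries and 0, 6.12 and 9.69 CPM in the gastrocnemius. The values overlapped, and the log2 difference of 1.14 (SE 0.56) was not called (FDR = 0.125 by edgeR); the FDR was 0.0859 without gastrocnemius replicate 7 and 0.0991 without gastrocnemius replicate 8. It was called higher in the cortex with uncalled bases at the lowest peak density (log2 difference 0.66, FDR = 0.00131 by edgeR), by limma (FDR = 0.0112), with the label-number block (FDR = 0.0401), with no filter (FDR = 0.0902) and with equally many top-scoring peaks (FDR = 0.0837). Pcdhga1, the first gamma gene, had a peak in 6 of 9 cortex libraries (0, 3.99 and 8.63 CPM) and in no gastrocnemius library. It entered the test through the cortex alone, and with uncalled bases at the lowest peak density the log2 difference was 0.26 and was not called (FDR = 0.286 by edgeR). Pcdha2, near the start of the alpha cluster, had a peak in 7 cortex and 2 gastrocnemius libraries.

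**Figure D4:**
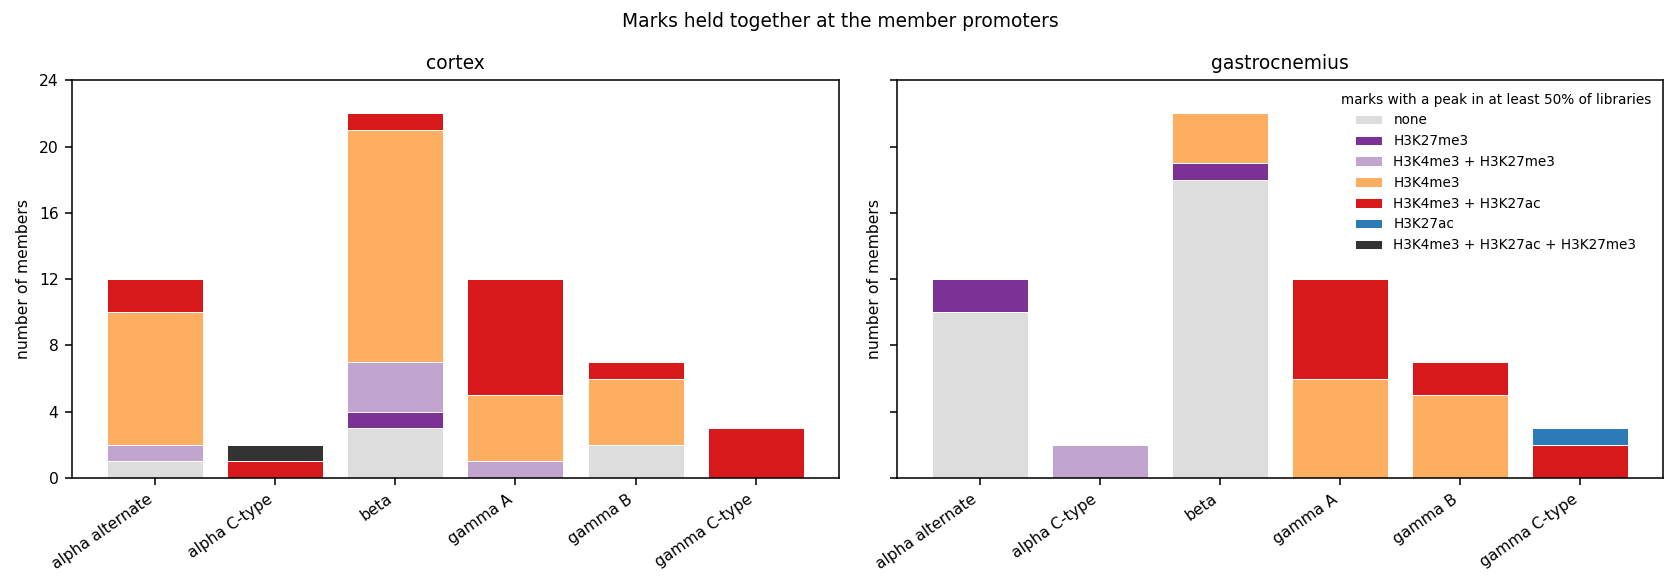
Number of members by class holding each combination of marks, a mark being counted where at least 50% of the tissue's libraries have a peak within 1 kb of the TSS (cortex left, gastrocnemius right). H3K4me3 without the other marks is the largest group in the cortex (30 of 58), and no mark is the largest in the gastrocnemius (28 of 58).

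The combination of marks set the members apart from most promoters as a description. A mark was counted as present where at least 50% of a tissue's libraries had a peak. In the cortex, 30 of the 58 members (51.7%) held H3K4me3 without H3K27ac or H3K27me3, which was so at 0.678% of all promoters. H3K4me3 with H3K27ac was held by 15 members (25.9%, against 47.3% of all promoters), among them Pcdhac1 and the 3 gamma C-type members. H3K4me3 with H3K27me3 was held by 5 members, namely Pcdha2, Pcdhb1, Pcdhb2, Pcdhb4 and Pcdhga1 (8.62%, against 1.57%). All 3 marks were held by Pcdhac2, and H3K27me3 alone by Pcdhb3. Such pairs come from separate libraries of mixed cells, so the marks need not lie on the same chromatin molecule.

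In the gastrocnemius 28 members (48.3%, against 24.7% of all promoters) held none of the marks, 14 (24.1%, against 0.659%) held H3K4me3 alone and 10 held H3K4me3 with H3K27ac, all 10 in the gamma cluster. Pcdhac1 and Pcdhac2 held H3K4me3 with H3K27me3. Pcdha10, Pcdha11 and Pcdhb1 held H3K27me3 alone, and Pcdhgc5 held H3K27ac alone. Over both tissues the most common pattern, seen in 18 members, was H3K4me3 alone in the cortex and no mark in muscle. Many members lay close to the calling limit, since the median H3K4me3 of alternate alpha, beta and gamma B members in the cortex was 4.58, 2.81 and 3.23 CPM and the level given to a whole uncalled window at the lowest peak density was 1.98 to 2.89 CPM.

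**Figure D5:**
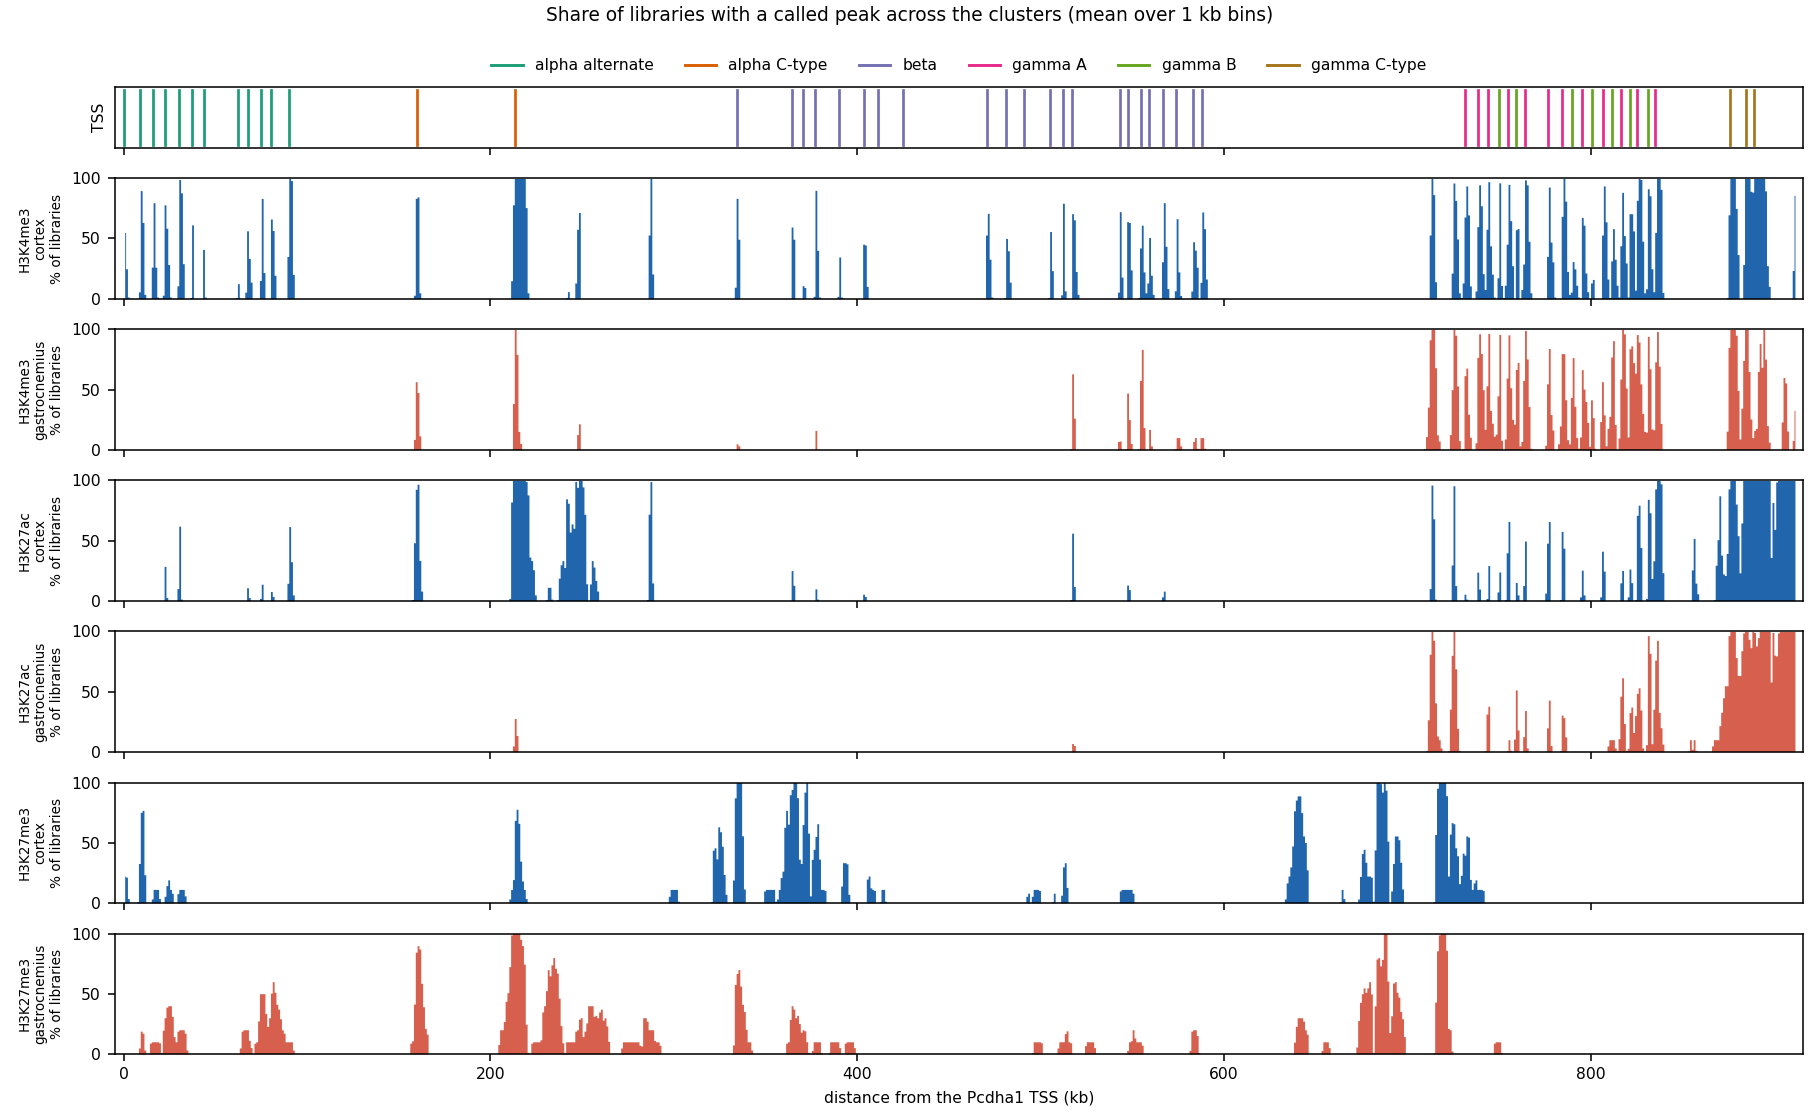
Percentage of libraries with a called peak along the 3 clusters, averaged over 1 kb bins, against the distance from the Pcdha1 TSS (kb), with the member TSSs coloured by class above. In the cortex H3K4me3 follows the TSSs of all 3 clusters and H3K27ac fills the stretch after Pcdhac2, whereas in the gastrocnemius both are mostly limited to the gamma end.

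Over the whole locus, from the first to the last member (912 kb), the cortex had 47 to 60 H3K4me3 peaks per library and the gastrocnemius 25 to 34. They covered 85.9 to 131 kb and 61.9 to 85.3 kb. Several sites outside the member promoters were chosen for description after their values were seen, and they were not tested. The site chr18:37216801-37218400, which lies 27.9 kb past the end of the alpha cluster and 46.6 kb before Pcdhb1, had H3K4me3 in all 9 cortex libraries, at 15.2 to 20.5 CPM (median 16.9), and in none of the gastrocnemius libraries. H3K27ac was called at nearly the same place (chr18:37216601-37218400) in all 9 cortex libraries, at 6.74 to 11.3 CPM (median 10.3), and in no gastrocnemius library. The site holds no member exon. A run of H3K27ac at chr18:37175801-37182200, inside the spans of all 14 alpha genes, in no exon of theirs and 32.1 kb after the Pcdhac2 TSS, had 19.2 to 26.5 CPM in the 9 cortex libraries and no peak in muscle. The H3K27ac domain at Pcdhac2 itself (chr18:37141401-37151600) had 45.6 to 62.5 CPM in the cortex (median 60.9) and at most 3.88 CPM in the gastrocnemius, where 3 libraries had a peak.

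At the other end of the locus, the H3K27ac domain over the gamma C-type genes and the gamma constant exons (chr18:37802801-37828400) was present in every library of both tissues, with 123 to 167 CPM in the cortex (median 157) and 60.6 to 84.1 CPM in the gastrocnemius (median 72.4), without overlap. H3K27me3 was shared by all libraries of both tissues at a pair of sites between the beta and gamma clusters, chr18:37613001-37620000 and chr18:37645601-37652200. In contrast, H3K27me3 at chr18:37160601-37167600, after Pcdhac2, was called in 9 of 10 gastrocnemius and in no cortex library, and at chr18:37567801-37574800 in 8 of 9 cortex and 3 of 10 gastrocnemius libraries. Taf7, a gene of the general transcription machinery that lies between the beta and gamma clusters, had 37.8 CPM ± 6.23 of H3K4me3 in the cortex (SD, n = 9) and 33.9 CPM ± 7.31 in the gastrocnemius (SD, n = 10). It was not called, and its log2 difference of 0.16 became -0.13 with TMM factors. Taf7 was called higher in the gastrocnemius with 2.5 kb windows (-0.39, FDR = 3.97e-06 by edgeR) and with whole peak counts (-0.49, FDR = 2.54e-10 by edgeR). Diaph1, an actin-assembly gene near the clusters, had 29.0 CPM ± 2.91 and 28.0 CPM ± 7.61 (log2 difference 0.05, and -0.23 with TMM factors). It was called higher in the gastrocnemius with TMM factors (FDR = 0.0976 by edgeR) and with DESeq2 size factors (FDR = 0.0547 by edgeR). The same call was made by DESeq2 (FDR = 0.0403) and with whole peak counts (FDR = 8.83e-08 by edgeR). Slc25a2, a neighbouring mitochondrial carrier gene, had no peak of any mark in its window.

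Genes related to the members were read from the same fit. Non-clustered protocadherins, which are single genes elsewhere in the genome, had 10 of 12 promoters called higher in the cortex for H3K4me3 and 1 called higher in the gastrocnemius, against 59.1% and 16% of all tested promoters. The one higher in muscle was Pcdh12, a protocadherin known from endothelium, with 12.3 to 17.6 CPM in the gastrocnemius and a peak in 1 of 9 cortex libraries. Pcdh12 was thus tested through the gastrocnemius alone. Pcdh15 and Pcdh20 had 13.6 CPM ± 1.89 and 16.2 CPM ± 1.72 in the cortex (SD, n = 9) and no peak in the gastrocnemius, and so were tested through the cortex alone. For H3K27ac 10 of the 12 were higher in the cortex and 1 higher in the gastrocnemius (49.8% and 12.9% of all tested promoters), and Pcdh8, Pcdh11x, Pcdh15 and Pcdh20, with no peak in muscle, likewise entered through the cortex alone. For H3K27me3 0 of 12 were called higher in the cortex by edgeR (0 at an unadjusted p under 0.05, and 0 by limma) and 6 higher in the gastrocnemius, against 19.9% and 23% of all tested promoters, but Pcdh1, Pcdh9, Pcdh10, Pcdh15 and Pcdh17 had no cortex peak and entered the test through the gastrocnemius alone. Among these, Pcdh1, Pcdh10 and Pcdh17 had peaks in 10, 10 and 9 of 10 gastrocnemius libraries.

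Regulators known to act at the clusters, such as the insulator protein Ctcf, cohesin subunits and the silencers Smchd1 and Setdb1, had 12 of 20 tested promoters higher in the cortex for H3K4me3 and 1 higher in the gastrocnemius, and 2 and 7 with TMM factors. Over all tested promoters these shares were 59.1% and 16%, and 32.3% and 27.4% with TMM factors. Smchd1, which contributes to silencing of the clusters, kept its direction under both scalings (log2 difference 0.64, and 0.36 with TMM factors), as did the histone methyltransferase gene Ehmt2 (0.93 and 0.64). The one higher in the gastrocnemius was Setdb1, with 0, 2.83 and 4.29 CPM in the lowest, median and highest cortex libraries against 3.22, 5.38 and 5.74 CPM (log2 difference -0.86, SE 0.45, FDR = 0.0942 by edgeR, and -1.19 with TMM factors). The unadjusted p of Setdb1 was not under 0.05 by edgeR. Its FDR was 0.208 with the mouse block (log2 difference -1.003) and above 0.1 in most fits that left out 1 library (-0.98 to -0.69 over all of them). For H3K27ac 9 of 20 were higher in the cortex and 1 higher in the gastrocnemius, where 49.8% and 12.9% of all tested promoters were. That 1 was again Setdb1, which had a peak in 3 of 10 gastrocnemius libraries and in no cortex library and so entered the test through the gastrocnemius alone. Signalling and processing partners had 11 of 14 higher in the cortex for H3K4me3 and 0 higher in the gastrocnemius by edgeR (0 at an unadjusted p under 0.05, and 0 by limma), and 3 and 1 with TMM factors, where the shares over all promoters were 59.1% and 16%, and 32.3% and 27.4%. Those with the largest difference were Ptk2b (1.97), Cyfip2 (1.5) and Ret (1.11), a kinase of the focal adhesion family, a subunit of the WAVE actin-regulating complex and a receptor kinase. For H3K27ac 5 of 14 were higher in the cortex, where 49.8% of all tested promoters were, and for H3K27me3 2 of 4, Cyfip2 and Wasf1, were higher in the gastrocnemius (23% of all tested promoters), both without a cortex peak and so tested through the gastrocnemius alone. Of 25 other genes within 250 kb of the clusters, 13 of 20 tested were higher in the cortex for H3K4me3 and 4 higher in the gastrocnemius (59.1% and 16% of all tested promoters), with 8 and 1 of 20 for H3K27ac (49.8% and 12.9%), and 0 and 1 of 6 for H3K27me3 by edgeR, where 0 favoured the cortex at an unadjusted p under 0.05 and limma called 1.

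The lists of cell markers given here, other than that of Schwann cells, did not overlap between tissues in summed H3K4me3. The 5 neuronal markers had 88.0 to 136 CPM in the cortex and 7.75 to 15.0 CPM in the gastrocnemius, with Snap25, Rbfox3 and Gad1 at 0 there. Astrocyte markers had 31.5 to 47.7 against 6.92 to 13.9 CPM, with Gfap at 0 in muscle and Aqp4 at 0 in both tissues. Microglial markers had 7.84 to 19.9 against 0 to 2.27 CPM (Cx3cr1 and P2ry12 at 0 in muscle). In the other direction, the 6 muscle fibre markers had 33.2 to 50.4 CPM in the cortex and 97.4 to 136 CPM in the gastrocnemius, with Ckm, Tnnt3, Myh4 and Ttn at 0 in the cortex. Of the 6, however, 1 was called higher in the cortex and 5 higher in the gastrocnemius (59.1% and 16% of all tested promoters). Satellite cell markers had 0 against 12.6 to 19.9 CPM, fibroblast markers 8.27 to 18.6 against 19.7 to 30.3 CPM and endothelial markers 13.7 to 19.3 against 24.1 to 46.3 CPM. Schwann cell markers overlapped, at 50.6 to 72.9 CPM in the cortex, and in the gastrocnemius their lowest library had 39.6 CPM and their highest 70.02 CPM. The part of each cell type in the members' differences was not tested.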

How the data were processed

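ChIP-seq libraries of 3 marks from 9 cortices and 10 gastrocnemius muscles of 10 mice were used as deposited. For the deposited peaks, the authors mapped reads with bwa (mm10), kept those of mapping quality 1 or more that were no duplicates and lay on the autosomes or X, and ran epic2 on every library by itself, without input, at an FDR under 0.05. It joined windows of 200 bases over gaps of up to 2 (H3K27me3: 3). The epic2 version is not given here. The deposited counts are the whole reads that the authors' epic2 run found in each peak, not normalized, and the deposited score ranks its peaks. Each peak's reads were apportioned by overlap to windows reaching 1 kb either way from 1 TSS per gene, then divided by reads in autosomal peaks (CPM).

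Tissues were compared for each mark by edgeR 4.0.16 (quasi-likelihood, robust, tissue as the factor, Benjamini-Hochberg over all tested promoters, FDR under 0.1) in R 4.3.3, with limma 3.58.1 and DESeq2 1.42.0 as alternatives, and tables were made with Python 3.11.15, NumPy 2.4.6, pandas 2.3.3, SciPy 1.17.1 and matplotlib 3.10.9. Code was tested on simulated data. Named were the C-type members, the highest and lowest member of each class and mark, the 3 largest calls in each direction, calls against the majority, Taf7, Slc25a2, Diaph1, the 3 largest calls of each list and the tissue checks; others were named after their values were seen. Members, lists and tests were chosen with earlier results of these data known.

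Deposited names give the mouse. Deviations of the 9 same-mouse pairs correlated at -0.07 to 0.06 for H3K4me3, -0.06 to 0.06 for H3K27ac and 0.04 to 0.13 for H3K27me3, and 4 of the label numbers name the same mouse in both tissues. The main test had no block. No 2 libraries of a mark held identical values (highest correlation 0.974 among 171 pairs per mark). Intervals of the tests cover the spread between mice. Alternatives were another scaling, tool, filter, window, peak threshold, block, run-number subset and each library left out. A few results on other genes are not reported here.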

Additional observations from a re-analysis of the deposited data

Results flagged for a closer look

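Among 82 groups of libraries, 3 had 1 library far from the others by Dixon's test, and chance gives about 1 in 20 such groups. Summed H3K4me3 over the gamma C-type members was 77.6 CPM in cortex replicate 3, below the 93.5 to 108 CPM of the other 8 cortex libraries. H3K4me3 at Pcdhga1 was 5.31 CPM in gastrocnemius replicate 1, above the 2.39 to 3.93 CPM of the other muscle libraries. H3K27ac at Pcdhgb8 was 10.8 CPM in cortex replicate 9, above the 3.25 to 4.54 CPM of the other cortex libraries, and this library had the fewest reads of its mark and tissue. The causes were not tested.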

How the results depend on the processing

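For H3K4me3 (33 members higher in the cortex) and H3K27ac (15), more members were higher in the cortex than in the gastrocnemius under every alternative run, while the small counts moved. For H3K4me3, members higher in the gastrocnemius (1) numbered 8 with TMM factors, 9 with DESeq2 size factors, 10 by DESeq2, 4 by limma, 0 by Fisher's exact test on calls, 3 with a peak in every library of a tissue, 2 in libraries without a run number, 3 with 2.5 kb windows, 3 with whole peak counts and 5 with uncalled bases at the lowest peak density. Those higher in the cortex numbered 16 without the 25% lowest scores. With a replicate block by mouse, 30 and 3 members were called for H3K4me3, 14 and 0 for H3K27ac and 5 and 3 for H3K27me3 (cortex, gastrocnemius), and with a block by label number 30 and 2, 15 and 0, and 6 and 3. For H3K27ac, 7 were higher in the cortex by Fisher's test, 23 with no filter, 5 with a peak in every library, 3 in libraries with a run number and 8 with equally many top-scoring peaks. In the gastrocnemius (0) 1 was called by limma, 1 with no filter, 1 with a run number, 1 with whole counts, 1 without the lowest scores and 2 with top-scoring peaks. For H3K27me3, those higher in the cortex (1) numbered 6 by limma, 5 by Fisher's test, 5 with no filter, 0 with a peak in every library, 2 without and 0 with a run number, 4 without the lowest scores and 4 with top-scoring peaks. Those higher in the gastrocnemius (4) numbered 11, 0, 2 and 1 under no filter, every library, no run number and run number, and 2 without the lowest scores.

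Leaving out 1 library gave 30 to 34 and 1 to 4 members for H3K4me3 (cortex, gastrocnemius), 13 to 16 and 0 to 0 for H3K27ac, and 1 to 3 and 3 to 5 for H3K27me3. The H3K4me3 gastrocnemius count was 4 without cortex replicate 2, 3 without cortex replicate 7, and 2 without cortex replicate 3, 8 or 9 or gastrocnemius replicate 6, 7 or 8. Members with a peak had a median of 30 (H3K4me3, cortex) and 6 (H3K27ac, gastrocnemius) without the lowest scores, and 4 (H3K27me3, cortex) with top-scoring peaks. Leaving out 1 library gave medians of 49 to 49 and 25 to 26, 17.5 to 20.5 and 9 to 11, and 7 to 7.5 and 6 to 6 for the 3 marks. Summed CPM for H3K4me3 in cortex and gastrocnemius was 613 and 286 with 2.5 kb windows, 968 and 327 with whole counts, 451 and 291 with uncalled bases at the lowest density and 304 and 158 without the lowest scores, and 157 in the gastrocnemius with top-scoring peaks. For H3K27ac the first 3 settings gave 191 and 67.4, 426 and 155, and 206 and 135. For H3K27me3 they gave 112 and 91.5, 121 and 131, and 252 and 272, and top-scoring peaks gave 35.3 in the cortex.

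Directions of single genes turned for H3K4me3 at Ehmt2 (whole counts, -0.15), Taf7 (TMM -0.13, DESeq2 size factors -0.17, DESeq2 -0.17, 2.5 kb -0.39, whole counts -0.49), Pcdhga1 (TMM -0.13, size factors -0.17, DESeq2 -0.16, run number -0.27), Pcdhgc3 (TMM -0.16, size factors -0.19, DESeq2 -0.19, run number -0.0045) and Diaph1 (TMM -0.23, size factors -0.27, DESeq2 -0.27, run number -0.26, 2.5 kb -0.083, whole counts -0.45, and, leaving out 1 library, -0.014 to 0.12, below 0 without gastrocnemius replicate 2 (-0.0027) or 4). For H3K27ac they turned at Wiz (whole counts, -0.37), Taf7 (run number, 0.057), Pcdhgb8 (TMM -0.063, size factors -0.082, DESeq2 -0.12, no run number -0.039, and -0.0083, without cortex replicate 9, to 0.29 leaving out 1 library), Pcdhgc3 (whole counts, -0.99) and Diaph1 (TMM -0.25, size factors -0.27, DESeq2 -0.28, no run number -0.035, whole counts -1.78, and -0.057, without cortex replicate 9, to 0.089 leaving out 1 library). The causes were not tested. A level of 0 depends on the caller's threshold and on depth, and counts of H3K27me3 rest on libraries of 2994110 to 18236388 reads.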
